A study of Mus musculus with 8 samples.

Results

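Imprinted genes are transcribed mainly from the copy inherited from the mother or mainly from the copy inherited from the father. Which copy is silent is set by DNA methylation laid down in the germ line at control regions, and genes under 1 control region lie together in a cluster. Many act on growth before birth, and in mouse liver Igf2 is strongly expressed in the fetus and switched off after birth. A list of 39 imprinted genes, chosen by name and compared by locus, was read on arrays of normal mouse liver and of MYC-driven liver tumours. The list was chosen with earlier results of these data known. Of the 39, 33 had a probe set annotated to their symbol alone, among 19937 genes measured. Mirg, Snrpn and Gnas shared their probe sets with another gene, and no probe set carried the name H19, Zrsr1 or Dcn-as in the annotation used, so these 6 were not analysed here. Each of the 33 genes had 1 such probe set. An array sums the transcripts of both parental copies, so no value given here shows which copy was read.

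The 4 tumours arose in mice that overexpress human c-MYC in the liver from a transgene regulated by doxycycline and driven by the CEBPB-LAP promoter, and were collected at the humane endpoint. The 4 control samples were normal livers of matched mice. The labels repeat the MYC transgene and doxycycline entry for the controls too, and do not say whether control mice carried or expressed it. They give no strain, age or sex, and do not say whether each tumour came from a different mouse. The p-values therefore measure only the spread between these samples. Values are on the log2 scale, so a difference of 1 is a 2-fold change, and all changes are tumours minus controls.

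The arrays of either group had like distributions, with medians between 6.33 and 6.44. Control liver 3 stood apart in the genes of the sex chromosomes: Xist, the X-inactivation RNA, read 11.89 there and 4.86 to 7.12 elsewhere. On that array 3 Y-linked genes read 3.46 to 5.39. A mean of 5.39 or less is therefore not shown to be above background here. This value rests on 3 probe sets of 1 array. Xist read up to 7.12 on the other arrays, where the 3 Y-linked genes read higher. A mean above 5.39 is therefore not by itself shown to be signal. Marker counts here are at an adjusted p of 0.05 in limma, where 16.2% of all genes were higher in tumours and 12.7% lower. Hepatocyte markers were lower in tumours for 8 of 9 measured (88.9%), with a list mean of 11.80 to 12.21 in controls and 10.61 to 10.93 in tumours. Among stellate cell and fibroblast markers 2 of 14 were higher and 4 lower (list mean 7.31 to 7.501 in controls, 6.99 to 7.33 in tumours). For endothelial markers the counts were 1 higher and 6 lower of 11 (7.03 to 7.64 and 6.81 to 7.13), and for macrophage markers 4 higher and 3 lower of 11 (7.21 to 8.001 and 7.61 to 8.27). For bile duct markers they were 2 higher and 1 lower of 7 (6.10 to 6.496 and 6.19 to 6.38), and for erythroid markers 1 higher of 7 (6.45 to 6.72 and 6.66 to 6.99). None of 10 lymphoid or 7 mesothelial markers passed. As shares, the higher markers were 14.3% (stellate cell and fibroblast), 9.09% (endothelial), 36.4% (macrophage), 28.6% (bile duct) and 14.3% (erythroid). The lower markers of the first 4 of these lists were 28.6%, 54.5%, 27.3% and 14.3%. In such bulk samples fewer cells of a type and less RNA per cell cannot be told apart, and the part of these cell types in the results below was not tested.

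The genes of this list that differed were mostly higher in tumours. That does not extend to imprinted genes in general: of 48 further imprinted genes described below, 3 were higher and 11 lower. Of the 33 measured, 15 (45.5%) passed an adjusted p of 0.05 in limma, beside 28.9% of all genes tested. Of the 33, 12 were higher and 3 lower in tumours, that is 36.4% and 9.09%, beside 16.2% and 12.7% of all genes. Called rises of 2-fold or more numbered 10, or 30.3% of the members beside 5.54% of all genes, and no member was called 2-fold lower, beside 4.68% of all genes. The 12 higher genes were Sfmbt2, Peg10, Igf2, Rian, Grb10, Igf2r, Airn, Sgce, Phlda2, Peg3, Ppp1r9a and Impact. They came from 9 loci. The 3 lower genes were Blcap, Ndn and Copg2, with log2 changes between -0.44 and -0.38. The median change of all 33 was 0.08, against -0.04 over all genes. By the copy usually expressed, 7 of 20 paternally expressed genes were higher and 1 lower, and 5 of 11 maternally expressed genes were higher and 1 lower.

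**Figure D1:**
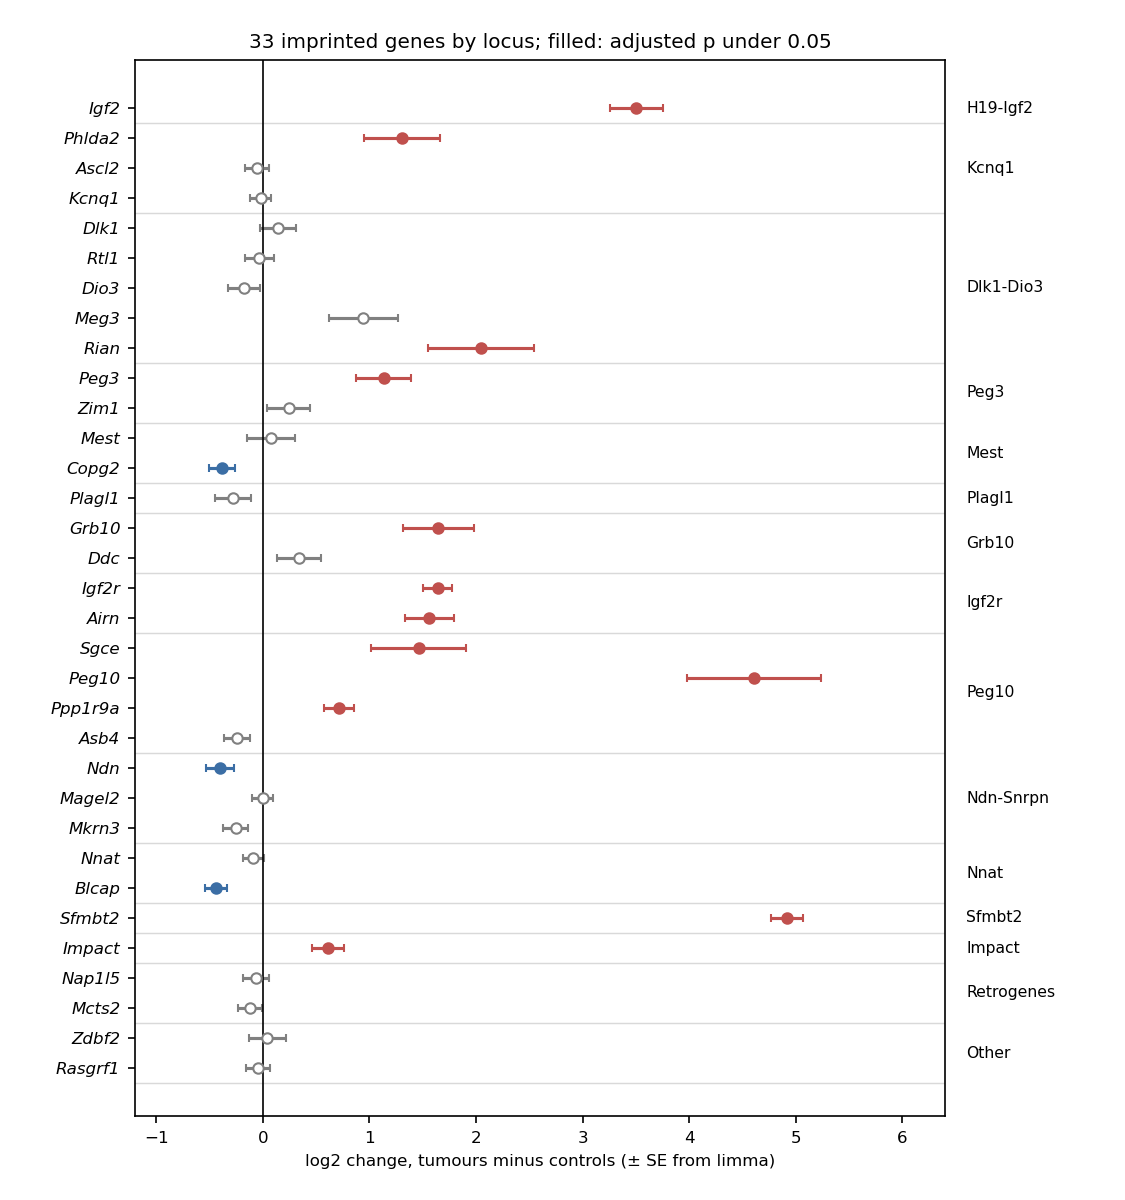
Change on the log2 scale, with its SE in limma, of the 33 measured imprinted genes, grouped by locus. Filled points passed an adjusted p of 0.05: 12 genes lie to the right of 0, up to 4.91 for Sfmbt2, and 3 lie to the left, none below -0.44.

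Sfmbt2, a Polycomb-group gene whose paternal copy is expressed in extraembryonic tissue, showed the largest rise of the list in the mean of the 4 tumours, though Peg10 rose more in tumours 2, 3 and 4, and without tumour 1 the changes were 4.90 for Sfmbt2 and 5.41 for Peg10. Sfmbt2 read 5.12, 5.68, 5.59 and 5.09 in the 4 controls and 10.33, 10.29, 10.40 and 10.12 in the 4 tumours. The groups lay far apart, and the tumours were within 0.28 of each other. The log2 change was 4.91 (SE 0.15, adjusted p = 1.5e-08 in limma), a 30.1-fold rise from a control mean of 5.37, which is not shown to be above background. Counted from 5.39 in place of the control mean, the rise was 29.8-fold. Sfmbt2 hosts a cluster of microRNAs in an intron, and 4 of them had probe sets of their own. None of Mir669b, Mir466, Mir669c and Mir297b passed, with changes of 0.20, 0.17, 0.10 and -0.25 and adjusted p between 0.283 and 0.789, and both means of Mir466 lay below 5.39. On the side of the gene's start, the adjacent measured gene Itih5 rose by 1.499 (SE 0.15, adjusted p = 4.0e-05) and the next, Itih2, which encodes a plasma protein, fell by 1.20 (SE 0.22, adjusted p = 0.00193). Beyond the microRNAs on the far side, Prkcq, a protein kinase C gene, fell by 0.55 (SE 0.14, adjusted p = 0.0137) to a tumour mean of 5.39, which is not shown to be above background.

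The 2 start sites of Sfmbt2 in RefSeq are shown because Sfmbt2 is, with Peg10, one of the listed genes with the largest changes. Each window runs 5′ to 3′ from 250 bases before the start to 50 after it (GRCm38.p6, plus strand, chr2:10370201-10370500 and chr2:10372186-10372485), with every CG in capitals, the dinucleotide at which imprints are methylated.
Sfmbt2 first window: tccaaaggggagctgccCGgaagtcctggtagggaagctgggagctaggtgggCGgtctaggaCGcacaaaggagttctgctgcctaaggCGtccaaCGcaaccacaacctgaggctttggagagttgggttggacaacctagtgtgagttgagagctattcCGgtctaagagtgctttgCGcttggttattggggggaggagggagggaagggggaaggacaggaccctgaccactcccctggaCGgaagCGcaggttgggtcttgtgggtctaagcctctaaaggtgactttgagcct
Sfmbt2 second window: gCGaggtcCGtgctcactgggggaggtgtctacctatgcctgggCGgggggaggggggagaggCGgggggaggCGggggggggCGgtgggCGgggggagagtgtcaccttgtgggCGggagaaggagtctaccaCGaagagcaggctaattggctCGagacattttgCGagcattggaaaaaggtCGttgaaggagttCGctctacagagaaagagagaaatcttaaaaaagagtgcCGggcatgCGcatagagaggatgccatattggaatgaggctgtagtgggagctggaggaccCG
The windows hold 9 and 16 CG, and neither holds CACGTG, the palindromic E-box bound by MYC and MAX. Across 32851 windows of the same length, the median was 7 CG, and 7.15% held CACGTG on either strand. Methylation was not measured.

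At the Peg10 locus a block of 3 neighbours rose. Peg10, a retrotransposon-derived gene needed in the placenta, read 6.23, 6.01, 5.92 and 5.93 in controls and 8.24, 11.68, 11.57 and 11.05 in tumours. Tumour 1 lay above every control and far below the other tumours. The log2 change was 4.61 (SE 0.63, adjusted p = 2.7e-04 in limma), or 24.4-fold, and 5.41 without tumour 1. In single tumours the rise over the control mean ranged from 4.65-fold to 50.5-fold. Sgce, the epsilon-sarcoglycan gene next to Peg10 and also paternally expressed, read 5.80, 6.44, 6.16 and 6.41 in controls and 6.02, 8.40, 8.20 and 8.03 in tumours. Tumour 1 lay within the controls for Sgce, and the other 3 tumours lay above them. Sgce rose by 1.46 (SE 0.45, adjusted p = 0.0312), and by 2.01 without tumour 1. The Sgce call was lost when limma used a mean-variance trend with robust shrinkage (adjusted p = 0.0766) and without tumour 2, 3 or 4 or control liver 1, 2 or 3 (0.0546 to 0.0876).

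Ppp1r9a, which encodes the actin-binding protein neurabin, lies on the other side of Peg10. It read 6.27 to 6.51 in controls and 6.97, 7.29, 6.81 and 7.43 in tumours, with no overlap, and rose by 0.72 (SE 0.14, adjusted p = 0.00285). Asb4, the maternally expressed gene further along, read 5.32 to 5.82 in controls and 5.21 to 5.42 in tumours, with a change of -0.24 (SE 0.12, adjusted p = 0.170) and a tumour mean not shown to be above background. The paraoxonase genes Pon1, Pon3 and Pon2, which encode lactonases and lie between Ppp1r9a and Asb4, were strongly lower. Their changes were -6.66, -3.76 and -2.04 (SE 0.17, 0.16 and 0.18), with adjusted p between 5.3e-09 and 1.3e-05. On the Sgce side, Casd1, a sialic acid acetyltransferase gene, changed by -0.15 (adjusted p = 0.445). The collagen gene Col1a2 beyond it rose by 0.30 (SE 0.10, adjusted p = 0.0414). So within this run of measured genes, 3 adjacent genes were higher and the next 3 lower. Pon1, Pon3, Pon2 and Casd1 are on the list of further genes reported as imprinted.

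Igf2, the fetal insulin-like growth factor, read 6.35, 6.85, 6.14 and 5.82 in controls and 10.19, 10.10, 9.66 and 9.23 in tumours. Every tumour lay more than 2 log2 units above every control. The log2 change was 3.50 (SE 0.25, adjusted p = 2.9e-06 in limma), and between 3.35 and 3.69 when any single array was left out. The nearest measured genes outside Igf2 did not pass. H19, of the same locus, had no probe set of its name and was not read. On one side, Mrpl23, a mitochondrial ribosomal protein gene, changed by 0.32 (adjusted p = 0.197), and on the other Ins2, the insulin gene, by 0.06 (0.747). Mir483, a microRNA inside Igf2, read 7.89 to 8.06 in controls and 7.84 to 8.67 in tumours and changed by 0.18 (SE 0.16, adjusted p = 0.499). Th, the tyrosine hydroxylase gene further on, fell by 0.39 (SE 0.09, adjusted p = 0.00929).

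In the adjoining Kcnq1 cluster, Phlda2, a maternally expressed gene that restrains placental growth, varied widely among tumours. It read 6.01, 6.27, 5.99 and 6.24 in controls and 8.42, 7.37, 7.68 and 6.25 in tumours. Tumour 4 lay within the controls, while the other 3 lay above them. Phlda2 rose by 1.30 (SE 0.36, adjusted p = 0.0196), a call lost without tumour 3 (adjusted p = 0.0547), and by 1.70 without tumour 4. Cdkn1c, the maternally expressed cell cycle inhibitor p57 in the same cluster, was on the list of further imprinted genes and rose by 1.38 (SE 0.17, adjusted p = 1.6e-04). Slc22a18, a transporter gene lying between them, fell by 1.02 (SE 0.11, adjusted p = 6.4e-05), and Nap1l4, a histone chaperone gene on the far side of Phlda2, rose by 0.57 (SE 0.10, adjusted p = 0.00187). The potassium channel gene Kcnq1 (6.14 to 6.41 in controls, 6.20 to 6.36 in tumours) changed by -0.02 and Ascl2, a transcription factor gene of the placenta, by -0.05, with adjusted p of 0.904 and 0.787.

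Igf2r and Airn both rose. Igf2r encodes the receptor that clears Igf2 protein, and its maternal copy is expressed. Airn is the paternally expressed long RNA that is read from within Igf2r on the opposite strand and silences Igf2r in cis. Igf2r read 8.21, 7.74, 7.67 and 8.09 in controls and 9.71, 9.48, 9.56 and 9.51 in tumours. The log2 change was 1.64 (SE 0.13, adjusted p = 7.6e-06), with the tumours within 0.23 of each other. Airn read 6.95, 7.25, 7.22 and 6.99 in controls and 8.18, 9.45, 8.51 and 8.53 in tumours, and rose by 1.56 (SE 0.23, adjusted p = 4.8e-04). Neither gene overlapped between the groups. The order of the tumours differed: tumour 1 was highest and tumour 2 lowest for Igf2r, and the reverse held for Airn. The difference between their changes was 0.08 (exact permutation of the per-array difference, two-sided p = 0.886), with an SD of that difference of 0.42 among controls and 0.63 among tumours. The genes overlap, and no source used here says whether the labelling kept the strands apart, so whether either probe set also read the other transcript was not tested. Flanking them, Slc22a2, an organic cation transporter gene imprinted in placenta, changed by -0.30 (adjusted p = 0.213) and the receptor gene Mas1, with both means below 5.39, by -0.16 (0.365).

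The starts of both are shown because these 2 genes of 1 locus had similar mean changes while their windows differ in CG content. They are printed as for Sfmbt2 (GRCm38.p6), Igf2r on the minus strand (chr17:12769657-12769956) and Airn on the plus strand (chr17:12741061-12741360).
Igf2r: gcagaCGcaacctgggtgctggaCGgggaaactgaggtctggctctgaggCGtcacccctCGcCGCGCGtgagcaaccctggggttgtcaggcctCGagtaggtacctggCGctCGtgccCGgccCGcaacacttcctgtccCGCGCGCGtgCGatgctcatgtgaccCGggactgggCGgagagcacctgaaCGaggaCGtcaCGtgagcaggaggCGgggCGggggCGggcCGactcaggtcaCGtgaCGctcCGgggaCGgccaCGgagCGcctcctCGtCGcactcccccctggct
Airn: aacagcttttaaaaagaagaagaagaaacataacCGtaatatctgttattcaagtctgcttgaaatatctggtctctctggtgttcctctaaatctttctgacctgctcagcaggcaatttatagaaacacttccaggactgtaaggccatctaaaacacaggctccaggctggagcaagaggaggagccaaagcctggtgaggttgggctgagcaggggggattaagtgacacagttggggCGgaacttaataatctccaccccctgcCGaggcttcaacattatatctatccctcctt
The Igf2r window holds 34 CG and the Airn window 3. CACGTG occurs at 2 places in the Igf2r window, starting 48 and 7 bases before the start site, and is not among the letters of the Airn window. Of the 28 measured genes with a printable window, 4 held CACGTG in any of their windows: Igf2r and Ppp1r9a, which rose, and Plagl1 and Mcts2, which did not pass. Over all 27025 genes with a window, some of them not measured here, the share was 8.09%. In the 9 risen genes with a window the richest window held 0 to 48 CG, with a median of 24. That median was 17 over all 28 measured members with a window and 8 over the 27025 genes. Genes differed in their number of windows, so these sets are not strictly alike.

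Grb10, a maternally expressed adaptor that dampens insulin and IGF receptor signalling, read 6.33, 6.45, 6.31 and 6.32 in controls and 7.29, 9.04, 8.34 and 7.33 in tumours. All 4 tumours lay above the controls, which were within 0.14 of each other. The log2 change was 1.64 (SE 0.33, adjusted p = 0.00359), and in single tumours the rise was 1.91-fold to 6.42-fold. Ddc, the aromatic amino acid decarboxylase gene next to it, is imprinted only in some tissues. It read 8.24 to 8.97 in controls and 8.53 to 9.46 in tumours, and changed by 0.34 (SE 0.21, adjusted p = 0.273). The change of Grb10 exceeded that of Ddc by 1.30, with the smallest p that 4 against 4 arrays allow (exact permutation, two-sided p = 0.0286, adjusted p = 0.0762 over 16 pairs). Fignl1, the gene after Ddc, rose by 3.38 (SE 0.18, adjusted p = 4.3e-07) from a control mean of 4.87, which is not shown to be above background. Counted from 5.39 the rise was 7.30-fold in place of 10.4-fold. Cobl, on the other side of Grb10, changed by -0.17 (adjusted p = 0.403).

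**Figure D2:**
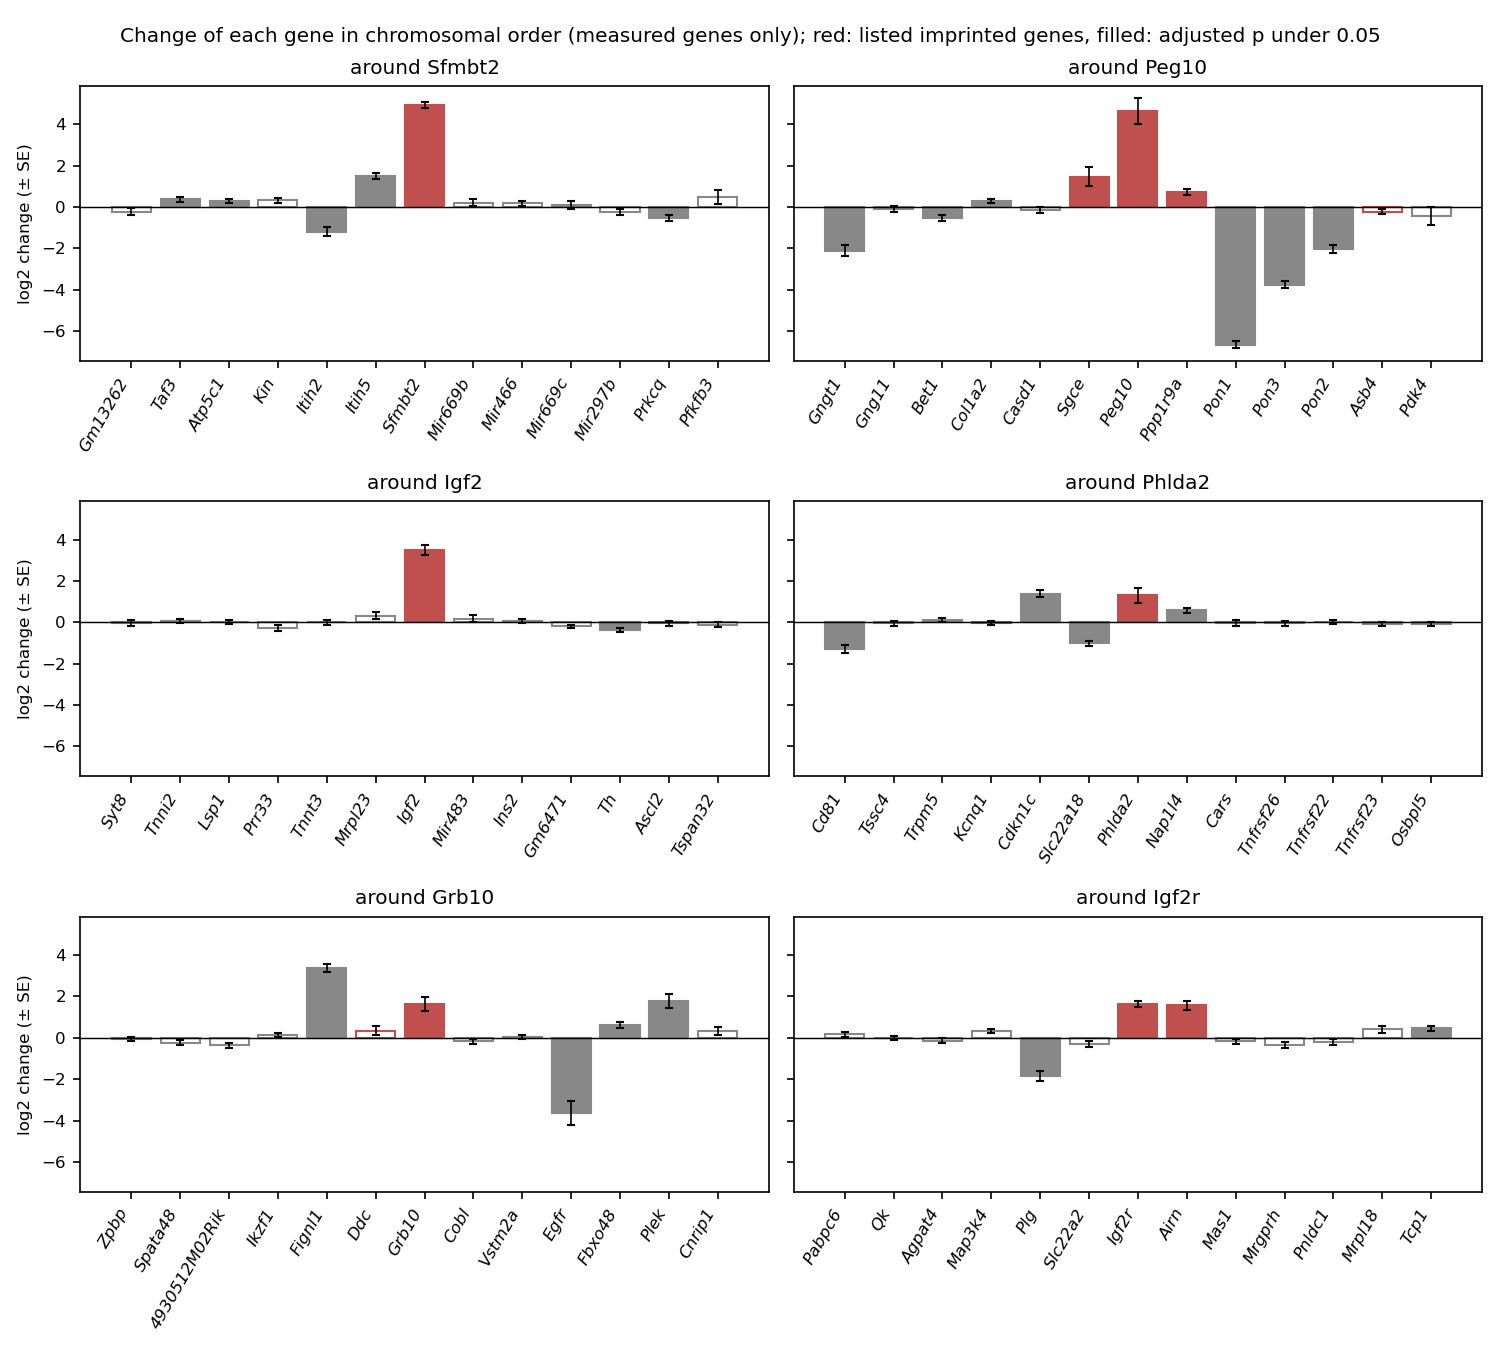
Log2 change (± SE from limma) of measured genes in chromosomal order around 6 imprinted genes, up to 6 on each side, by their order in RefSeq. Red bars are listed imprinted genes and grey bars other genes, filled where the adjusted p was under 0.05. Some grey bars, such as Pon1, Pon3, Pon2, Cdkn1c and Slc22a18, are on the list of further genes reported as imprinted. Sgce, Peg10 and Ppp1r9a stand above 0 beside Pon1, Pon3 and Pon2 below it, and Igf2 (3.50) stands between genes with changes of 0.32 and 0.18.

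At the Dlk1-Dio3 locus the maternally expressed long RNA Rian was higher, Meg3 narrowly missed the threshold and no paternally expressed protein gene passed. Rian, a host RNA of small nucleolar RNAs, read 4.60, 5.72, 5.46 and 5.31 in controls and 6.999, 9.03, 6.96 and 6.29 in tumours. The groups did not overlap, and tumour 2 stood well above the rest. Rian rose by 2.05 (SE 0.50, adjusted p = 0.0101), and by 1.48 without tumour 2. Its control mean of 5.27 is not shown to be above background, and counted from 5.39 the rise was 3.82-fold. A snoRNA inside Rian, DQ267102, has a probe set of its own and read 5.97, 6.38, 6.18 and 6.58 in controls and 8.58, 10.44, 8.07 and 7.01 in tumours. It rose by 2.25 (SE 0.56, adjusted p = 0.0120), again with tumour 2 highest and tumour 4 lowest. The other measured snoRNA inside Rian, DQ267101, had means of 3.72 in controls and 4.36 in tumours, so it is not shown to be above background, and it did not pass (adjusted p = 0.174).

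Meg3, the long RNA upstream of Rian, read 6.02, 6.74, 6.09 and 6.62 in controls and 7.42, 8.31, 6.78 and 6.74 in tumours. Tumour 4 read level with control liver 2 and tumour 3 just above it. The Meg3 change of 0.94 (SE 0.32) had an adjusted p of 0.0520 in limma. It passed without tumour 3 (0.0369) or tumour 4 (0.0328), with the replicate number as a block (0.0229) and when dim genes were left out (0.0443). Dlk1, a transmembrane Notch-like protein of fetal liver, read 6.85 to 7.37 in controls and 6.78 to 7.47 in tumours, and changed by 0.14 (SE 0.17, adjusted p = 0.595). Rtl1, a retrotransposon-derived gene of the placenta, changed by -0.03 and Dio3, the deiodinase that inactivates thyroid hormone, by -0.17, with adjusted p of 0.900 and 0.461. The change of Meg3 exceeded that of Dlk1 by 0.80 (exact permutation, two-sided p = 0.0571, adjusted p = 0.0914 over 16 pairs).

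MicroRNAs of imprinted loci, many of them from this region, were read by probe sets of their own. Of 43 measured, none was higher and 1, Mir667, was lower in limma (-0.36, SE 0.10, adjusted p = 0.0212). These are 0% and 2.33% of the list, beside 16.2% and 12.7% of all genes. Whether these probe sets read the mature microRNAs was not tested. At an unadjusted p under 0.05 none were higher and 3 lower. The Mir667 call rests on single arrays, and the count was 0 without tumour 3 or control liver 2 or 4, and 2 without tumour 2 or control liver 1. For 25 of the 43 both group means were no higher than 5.39, so their levels are not shown to be above background. Mir341 and Mir370, which lie inside Rian, had adjusted p of 0.727 and 0.998.

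Peg3, a paternally expressed zinc finger gene, was among the brighter members. It read 7.62, 7.57, 8.46 and 7.97 in controls and 8.62, 9.61, 8.65 and 9.26 in tumours, without overlap, and rose by 1.13 (SE 0.26, adjusted p = 0.00669). Its maternally expressed neighbour Zim1, also a zinc finger gene, read 4.77, 5.70, 4.61 and 5.21 in tumours against 4.78 to 4.87 in controls. The means of Zim1, Dio3 and Zdbf2 were no higher than 5.39 in both groups, so these genes are not shown to be above background. Impact, a paternally expressed regulator of the amino acid sensor GCN2, read 8.55, 8.93, 8.76 and 8.53 in controls and 8.89, 9.47, 9.45 and 9.43 in tumours. Tumour 1 lay within the controls and the other 3 above them. The rise of Impact was 0.61 (SE 0.15, adjusted p = 0.0109).

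**Figure D3:**
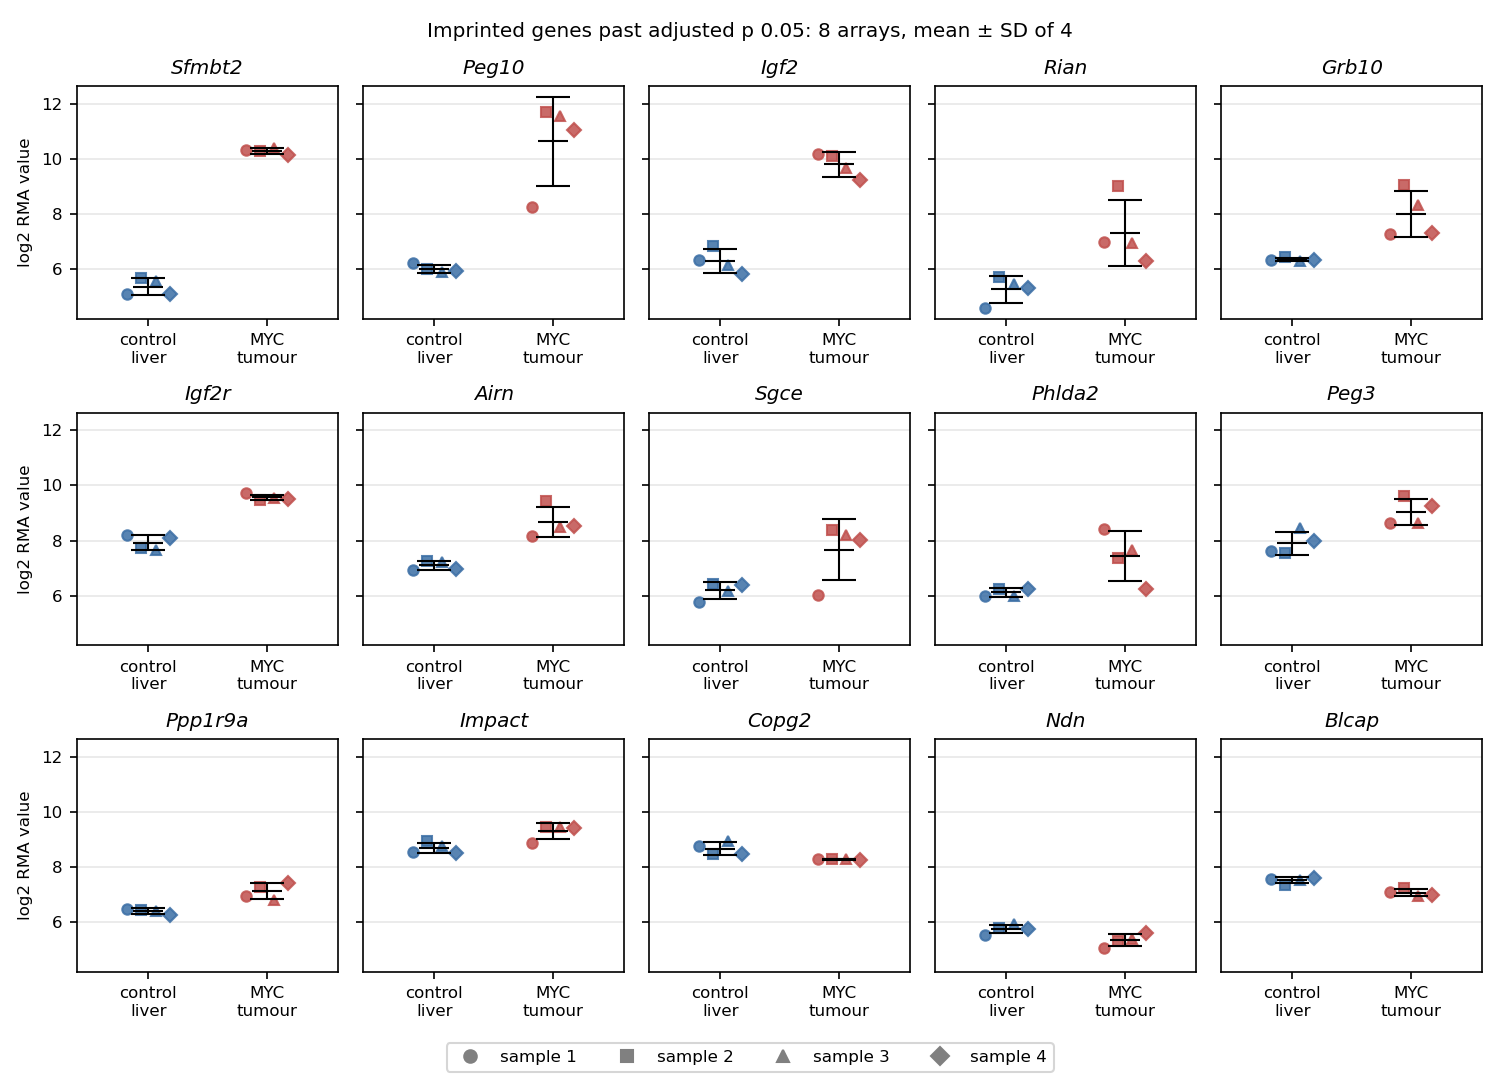
Log2 values of the 15 imprinted genes that passed an adjusted p of 0.05, on each of the 8 arrays. Symbols mark the sample number, and bars show each group's mean with its SD. Controls and tumours do not overlap for 11 of the 15, and tumour 1 (circle) lies low among the tumours for Peg10, Sgce and Impact. The 15 were picked by that test, which favours groups without overlap. Without that choice the share was 33.3% of the measured members, beside 30.2% of all genes.

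All 4 tumours lay on 1 side of all 4 controls for 11 of the 33 genes (33.3%, beside 30.2% of all genes), 9 of them higher and 2 lower. The share is close to that of all genes. The 9 were Sfmbt2, Peg10, Igf2, Rian, Grb10, Igf2r, Airn, Peg3 and Ppp1r9a, and the 2 were Copg2 and Blcap. Among the 12 risen genes, the range over tumours was wider than the range over controls for 9, and ran from 0.23 for Igf2r to 3.44 for Peg10. Tumour 2 was the highest tumour for 7 of the 12 and tumour 1 the lowest for 6. Tumour 1 was the highest for Igf2, Phlda2 and Igf2r, so it was not low throughout.

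**Figure D4:**
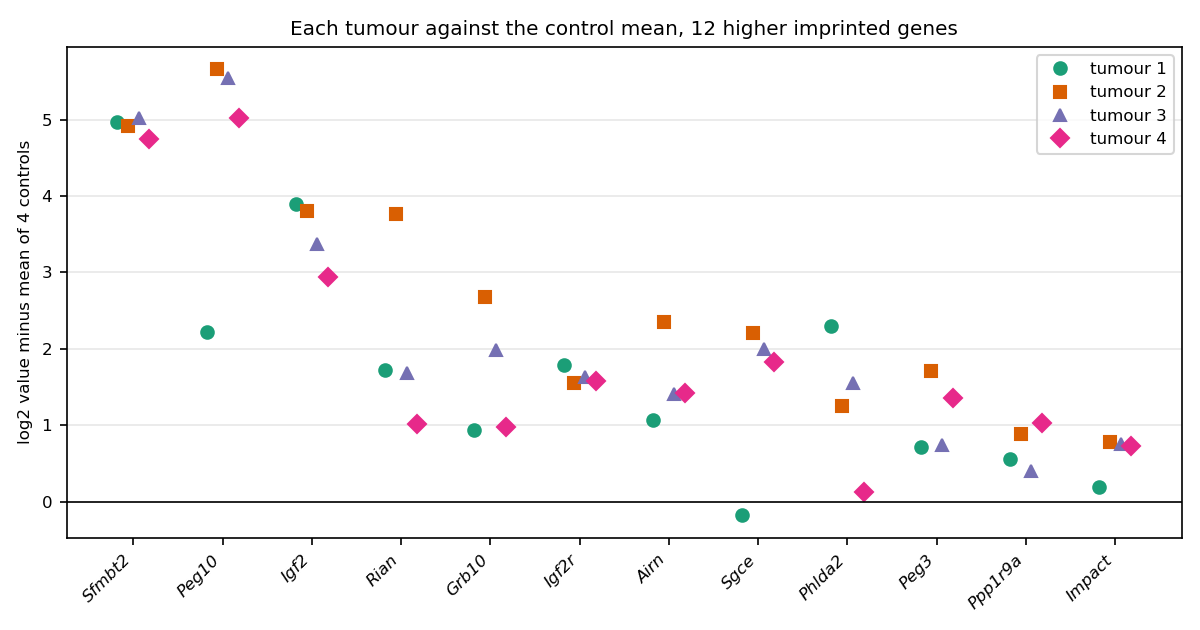
Log2 value of each tumour minus the mean of the 4 controls, for the 12 imprinted genes that were higher in tumours. Sfmbt2 and Igf2r show tumours close together, while Peg10 runs from 2.22 in tumour 1 to 5.66 in tumour 2, Sgce is at -0.18 in tumour 1 and Phlda2 at 0.12 in tumour 4.

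The lower genes changed by less than 0.5. Blcap, which overlaps the imprinted gene Nnat and is imprinted in brain, read 7.59, 7.37, 7.52 and 7.62 in controls and 7.09, 7.27, 6.97 and 6.995 in tumours. It fell by 0.44 (SE 0.10, adjusted p = 0.00780). Nnat, which lies inside Blcap and encodes the brain protein neuronatin, read 6.26 to 6.49 in controls and 6.17 to 6.46 in tumours, with a change of -0.09 (adjusted p = 0.586). Copg2, a coat protein gene that overlaps Mest, read 8.46 to 8.95 in controls and 8.24 to 8.30 in tumours. It fell by 0.38 (SE 0.12, adjusted p = 0.0359). Mest, a paternally expressed hydrolase gene of fetal growth, changed by 0.08 (SE 0.22, adjusted p = 0.851), with 7.14 in tumour 1 and 6.32 to 6.35 in the others. Ndn, the paternally expressed gene necdin, fell by 0.41 (SE 0.13, adjusted p = 0.0398), from 5.55 to 5.93 in controls to 5.08 to 5.61 in tumours, and the groups overlapped. Its tumour mean of 5.36 is not shown to be above background, and counted to 5.39 the change was -0.38. The number of lower genes was 1 without control liver 3 or without tumour 1, 2 or 3, where Copg2 and Ndn no longer passed (adjusted p between 0.0713 and 0.110). Copg2 also failed without tumour 4 (0.0656) or control liver 1 (0.0895), with the replicate block (0.0586) and with array medians subtracted (0.0525). Ndn also failed without control liver 2 (0.0895) or 4 (0.0742).

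Other loci gave no call. Magel2 and Mkrn3, which lie beside Ndn, changed by -0.00 and -0.25, with adjusted p of 0.985 and 0.143, and the tumour mean of Mkrn3 is not shown to be above background. Plagl1, a paternally expressed zinc finger gene regarded as a regulator of other imprinted genes, read 5.92 to 6.74 in controls and 5.85 to 6.25 in tumours, with a change of -0.28 (SE 0.17, adjusted p = 0.268). The retrogenes Nap1l5 and Mcts2 lie within introns of Herc3 and H13. They changed by -0.06 and -0.12 (adjusted p of 0.752 and 0.510), and their hosts by -0.23 and -0.17. Zdbf2 and Rasgrf1, both paternally expressed and mostly studied in brain, changed by 0.04 and -0.04, with adjusted p of 0.903 and 0.833. In all, 18 of the 33 genes did not pass, with changes between -0.28 and 0.94, and 14 of these lay within 0.25 of 0.

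Differences between neighbours were tested for 16 pairs of genes by exact permutation of the per-array difference. Of these, 6 reached 0.0286, the smallest p the design allows, and none passed after adjustment (adjusted p = 0.0762 for these 6). They were Peg10 over Sgce (a difference in change of 3.15), Peg10 over Asb4 (4.85), Grb10 over Ddc (1.30), Rian over Meg3 (1.10), Peg3 over Zim1 (0.89) and Magel2 over Ndn (0.40). For Phlda2 against Ascl2 and against Kcnq1 the differences were 1.36 and 1.33 (exact permutation, two-sided p = 0.0571 for either, adjusted p = 0.0914).

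A second list of 59 further genes reported as imprinted, several of them only in placenta, had 48 measured. Of these 3 were higher and 11 lower in limma, or 6.25% and 22.9% of the list beside 16.2% and 12.7% of all genes. The median change was -0.14. Besides Cdkn1c the higher genes were Nap1l4 and Commd1, which acts in copper handling and rose by 0.38 (SE 0.10, adjusted p = 0.0144). The largest falls were Pon1, Pon3 and Adam23, a membrane protein gene with a change of -2.72 (SE 0.17, adjusted p = 1.2e-06). Slc38a4, a paternally expressed amino acid transporter gene that is abundant in liver, fell by 1.53 (SE 0.15, adjusted p = 2.2e-05).

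Factors that write, copy, read or remove DNA methylation, or act in repressive chromatin, were mostly higher. Of 33 measured, 20 were higher and 2 lower, or 60.6% and 6.06%, beside 16.2% and 12.7% of all genes, with a median of 0.59. Hells, a chromatin remodeller needed for DNA methylation, rose by 3.94 (SE 0.22, adjusted p = 5.4e-07). Dnmt3a, a de novo DNA methyltransferase, rose by 2.15 (SE 0.19, adjusted p = 1.1e-05), and Suv39h2, a histone H3 methyltransferase, by 1.99 (SE 0.14, adjusted p = 2.2e-06). Uhrf1 and Dnmt1, which copy methylation after replication, rose by 1.91 and 1.48 (SE 0.15 and 0.12). Of the Tet genes, whose enzymes oxidise methylated cytosine and so lead to its removal, Tet1 rose by 1.33 (SE 0.32, adjusted p = 0.0102), and Tet2 and Tet3 did not pass (0.05 and 0.28, adjusted p of 0.896 and 0.136). The lower genes were Zfp445, a zinc finger protein that protects imprints (-0.69, SE 0.15, adjusted p = 0.00608), and Arid4a (-0.46, SE 0.08, adjusted p = 0.00187). Zfp57, another zinc finger protein that protects imprints, did not pass (0.11, adjusted p = 0.558), and Ctcf, the insulator protein that binds the control region upstream of Igf2, rose by 0.38 (SE 0.11, adjusted p = 0.0280).

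**Figure D5:**
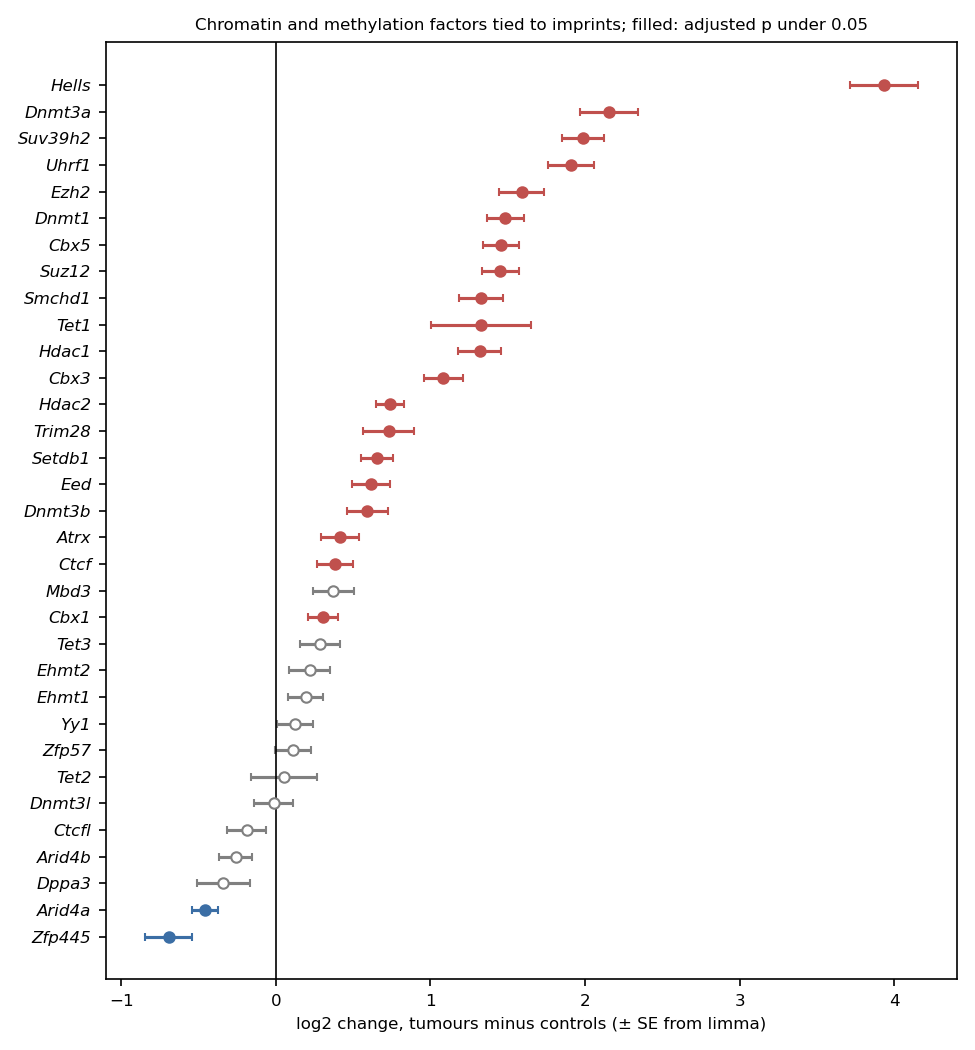
Log2 change (± SE from limma) of 33 genes for DNA methylation, its removal and repressive chromatin, ordered by change. Filled points passed an adjusted p of 0.05: 20 genes are higher, up to 3.94 for Hells, and 2 are lower, Zfp445 and Arid4a.

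Genes tied to the shut-off of fetal liver genes after birth moved in both directions. Of 11 measured, 5 were higher and 3 lower, or 45.5% and 27.3% beside 16.2% and 12.7% of all genes, with a median of 0.03. Afp, the fetal serum protein alpha-fetoprotein, rose by 5.14 (SE 0.25, adjusted p = 2.1e-07). Zbtb20, a repressor that silences alpha-fetoprotein in adult liver, fell by 3.40 (SE 0.18, adjusted p = 3.7e-07), and Zhx2, which also represses fetal genes after birth, by 0.55 (SE 0.15, adjusted p = 0.0150). Zfhx3, a further repressor of alpha-fetoprotein, fell by 0.43 (SE 0.10, adjusted p = 0.00680). Igf2bp3 and Igf2bp1, which encode proteins that bind Igf2 mRNA, rose by 2.52 and 1.03 (SE 0.16 and 0.19), with adjusted p of 1.4e-06 and 0.00221. In IGF and insulin signalling 1 of 19 genes was higher and 6 lower, or 5.26% and 31.6% beside 16.2% and 12.7% of all genes, with a median of -0.16. Igf1, the adult liver growth factor, fell by 3.00 (SE 0.10, adjusted p = 1.7e-08), Igfals, which carries IGF in blood, by 1.98 (SE 0.21) and Ghr, the growth hormone receptor, by 1.70 (SE 0.10). The higher gene was Igfbp1, a secreted IGF-binding protein, which rose by 3.32 (SE 0.41, adjusted p = 1.5e-04).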

How the data were processed

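Biotin-labelled RNA of 8 samples was hybridised to mouse gene arrays, 1 colour and 1 array per sample. The authors deposited log2 values of 34760 probe sets on every array. RMA (background correction, normalisation between arrays, summarisation) and R 3.0.2 are named per the submitters' processing notes, and no source used here gives the settings or the genome build. Arrays give no counts, so precision rests on how many there are.

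Gene names came from the platform annotation (21640 with 1 symbol, 1321 with several, 11799 with none). Symbols were updated by gene identifier through RefSeq (GRCm38.p6) for 21553, and the probe set with the highest mean was kept for each of 19937 genes. Groups were compared with limma 3.58.1 (lmFit, eBayes; group alone in the model) in R 4.3.3, with Benjamini-Hochberg adjustment over all genes. The fit was tested on simulated data. Members, lists, pairs and named genes were chosen with earlier results of these data known. Every measured member is named, and of each list up to 3 genes per direction. Neighbours and windows were read from RefSeq. The promoter table, searched for CACGTG, which is the same on both strands, lacks an entry for some members. Windows on the chromosome of Impact were left out for members but kept for all genes, so Impact could not be among the members with a window. The neighbours, the genes inside members, the windows, and Slc38a4, Uhrf1, Dnmt1, Ctcf, Zfp57 and the Tet genes were chosen after values were seen. Alternatives were quantile normalisation, subtraction of array medians, array weights, averaging a gene's probe sets, a mean-variance trend with robust shrinkage, dropping the dimmest 33.3% of genes, a block for replicate number, a test against a 1.5-fold change and leaving out each array. Leaving out control liver 3 and tumour 1 together was added after seeing the data. Python 3.11.15, pandas 2.3.3, scipy 1.17.1 and matplotlib 3.10.9 were used.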

Additional observations from a re-analysis of the deposited data

Results flagged for a closer look

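In 4 of 66 groups of 4 arrays, 1 array lay far from the other 3 by Dixon's test, which chance does in about 1 of 20 groups. Tumour 1 read 8.89 for Impact, where the other tumours read 9.43 to 9.47. It read 6.02 for Sgce, where the others read 8.03 to 8.40, and 7.14 for Mest, where the others read 6.32 to 6.35. Control liver 2 read 6.45 for Grb10, where the other controls read 6.31 to 6.33.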

How the results depend on the processing

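Against 12 reported, higher members numbered 11 to 13, except in a test against a 1.5-fold change. That test left 5 of 33 higher, 0 lower and 5 changed at least 2-fold, beside 8.62% of all genes called in either direction. With dim genes dropped only 24 members were tested. Of these 13 were higher, and 41.6% of all genes kept were called in either direction. Array weights gave 4 lower members. Lower members numbered 1 to 3 when single arrays were left out, and 1 without control liver 3 and tumour 1 together. The microRNA count ran from 0 to 2 when single arrays were left out, and was 0 without both of those arrays. Over all members and alternatives, 511 values kept their direction and side of the threshold, 35 were called no longer, 6 became called and none reversed. The cause was not tested. Whether the replicate numbers pair samples was not settled. Deviations of same-numbered arrays had correlations between -0.32 and 0.05, and those of differently numbered arrays reached 0.31. Low correlations cannot exclude a pairing with little effect on most genes. With the replicate block 13 members were higher and 2 lower. Pair tests with an array left out cannot reach 0.05 and say nothing about stability. Array signal limits the folds of Sfmbt2 and Rian, whose control means are no higher than 5.39. It may also limit other folds, such as those of Peg10, Phlda2, Sgce, Igf2 and Grb10, which was not tested. Their control means of 6.02 to 6.35 lie below the highest Xist value outside control liver 3 (7.12).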

Other observations

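Around Impact, genes changed in both directions. Taf4b, a subunit gene of the general transcription factor TFIID, rose by 1.51 (SE 0.13, adjusted p = 9.1e-06 in limma). Osbpl1a, the adjacent lipid-binding protein gene, fell by 0.66 (SE 0.12, adjusted p = 0.00159), and Npc1, the cholesterol transporter of lysosomes, fell by 0.99 (SE 0.18, adjusted p = 0.00172). Near Grb10, Egfr, the epidermal growth factor receptor, fell by 3.64 (SE 0.60, adjusted p = 9.2e-04) and Plek, a gene of blood cells, rose by 1.79 (SE 0.34, adjusted p = 0.00221). All lie within 6 measured genes of Impact or Grb10, and only Osbpl1a is adjacent. They were picked after values were seen and not by nearness. Nearer genes that also passed, such as Ttc39c, Cabyr and Ss18 beside Impact, are not described.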
